A study of Homo sapiens with 6 samples.

Results

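The cytosolic ribosomal proteins were followed in SKOV3 cells in which NRCP had been silenced. SKOV3 is an established human ovarian carcinoma line, and NRCP is a long non-coding RNA. Cells had received an siRNA against NRCP (siNRCP, 3 samples) or a control siRNA (sicontrol, 3 samples) for 48 h, and the labels name no other treatment or genetic change. Total RNA of each sample was read on 1 Illumina BeadArray, and the labels do not say whether the 3 samples of a group were separate cultures; the p-values therefore rest on a spread that may be technical. Genes were taken by name: symbols of the form RPL or RPS with a number and at most a short suffix, RPLP0 to RPLP2 and RPSA, with the RPS6 kinase genes left out. This gave 124 of the 47231 probes and 75 of the 20046 named genes. Each gene was represented by 1 probe, the one whose log2 signal had the highest mean on the 6 arrays. They comprised 41 genes of the large (60S) subunit, 25 of the small (40S) subunit, 2 of the P stalk and 7 paralogs, whose names end in L or L1. RPLP0 and RPSA had no named probe here.

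A ribosome is built from a small subunit, which reads the mRNA, and a large subunit, which forms the peptide bond. Each subunit needs its proteins in near equal amounts, and surplus ribosomal proteins are degraded. Most mRNAs of ribosomal proteins begin with a C and a run of pyrimidines, the 5′ terminal oligopyrimidine (TOP) motif. Through it, mTOR signalling and the RNA-binding protein LARP1 control their translation. Because these mRNAs are short, abundant and copied in many processed pseudogenes, a probe may also read transcripts from near-identical copies.

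The RefSeq table of gene starts (GRCh38.p14) held 63 of the 75 genes. A TOP-like start, taken as a C at the annotated first base followed by at least 4 further C or T on the transcribed strand, was found for 44 of them (69.8%). Among all 27305 genes of the table, 5.14% had one. Windows of 15 bases on either side of the start are shown for the 4 genes with the lowest difference (siNRCP minus sicontrol) and the 4 with the highest among those in the table, because they show whether the start of the mRNA sorted with the difference. Where several starts are listed, the one with the longest tract was taken, and capitals mark the tract.
RPS4X: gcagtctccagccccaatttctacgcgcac
RPL12: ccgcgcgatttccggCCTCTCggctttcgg
RPL19: gagcgagctctttcctttcgctgctgcggc
RPL13: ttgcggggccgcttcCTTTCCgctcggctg
RPL36A: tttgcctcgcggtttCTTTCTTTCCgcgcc
RPS29: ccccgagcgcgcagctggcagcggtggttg
RPL34: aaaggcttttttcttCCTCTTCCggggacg
RPL28: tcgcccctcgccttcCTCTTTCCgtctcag
The windows lie at chrX:72277234-72277263 (minus strand), chr9:127451392-127451421 (minus), chr17:39200308-39200337 (plus) and chr16:89560667-89560696 (plus) for the first 4. Those of the other 4 lie at chrX:101390996-101391025 (plus), chr14:49598696-49598725 (minus), chr4:108620561-108620590 (plus) and chr19:55385917-55385946 (plus). By this rule, starts with and without a tract occurred at both ends of the order. The rule depends on the exact annotated base. RPL19 counted as without a tract because that base is a T, although it lies within a longer run of C and T. Among the genes above background, the median difference was -0.28 log2 for the 42 genes with a tract and -0.27 for the 18 without one.

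The ribosomal protein signal differed more between arrays of one group than between the groups. The 75 probes together took 2.72%, 1.54% and 1.52% of the summed raw intensity on siNRCP arrays 1 to 3, against 1.96%, 2.84% and 2.32% on sicontrol arrays 1 to 3. After normalization, the median gene lay at 0.23, -0.51 and -0.61 log2 from its sicontrol mean on the 3 siNRCP arrays, in their order, and at -0.25, 0.25 and 0.01 on the 3 sicontrol arrays. siNRCP arrays 2 and 3 were thus low, and siNRCP array 1 lay beside sicontrol array 2. Between whole arrays, the Pearson r of siNRCP array 1 was 0.973, 0.981 and 0.98 with sicontrol arrays 1 to 3. With siNRCP arrays 2 and 3 it was 0.937 and 0.947, and between siNRCP arrays 2 and 3 the r was 0.992. The split of the siNRCP arrays was thus not particular to these genes. Against all 3 sicontrol arrays, siNRCP array 1 was lower for 4 genes and higher for 32, siNRCP array 2 was lower for 58 and higher for 6, and siNRCP array 3 was lower for 59 and higher for 6. Over all 20027 probes above background, these shares were 34.4% lower and 34.7% higher for siNRCP array 1, 42.3% and 41.4% for array 2, and 38.8% and 42.1% for array 3. Quantile normalization itself tends to balance such shares, so they are not an independent comparison. Within sicontrol, array 1 was the lowest of the 3 for 63 of the 75 genes, against 34.4% of probes above background. Array 2 was the highest for 60 genes, against 33.1% of those probes. The plot of all 75 genes by array shows this order.

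**Figure D1:**
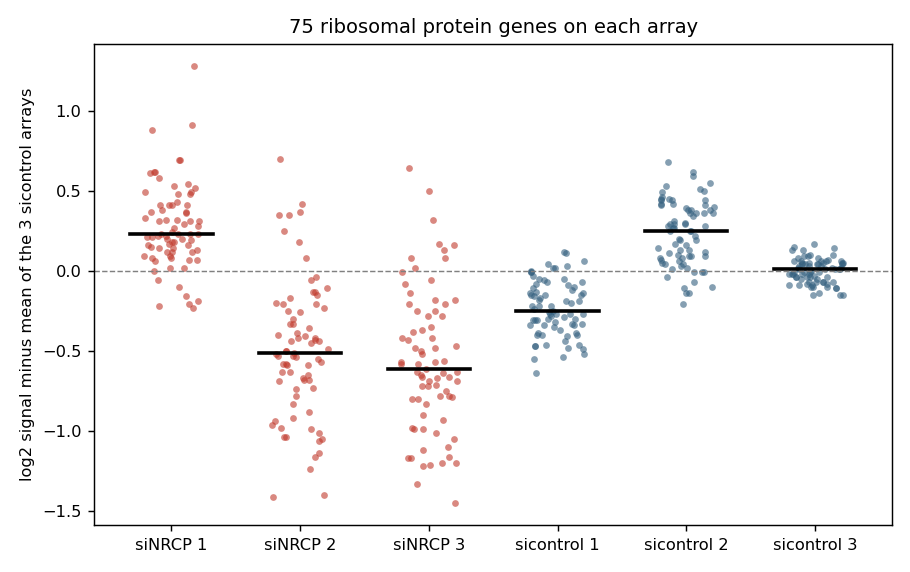
Log2 signal of the 75 ribosomal protein genes on each array minus the gene's mean over the 3 sicontrol arrays; each point is a gene and the bar the median. The siNRCP medians are 0.23, -0.51 and -0.61 from left to right, the sicontrol medians -0.25, 0.25 and 0.01.

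The mean raw intensity was 554 on siNRCP array 1, 373 on array 2 and 486 on array 3, against 563 on sicontrol array 1 and 555 on both other sicontrol arrays. The siNRCP arrays with the low ribosomal protein signal were thus also the dimmest, whereas sicontrol array 1, the lowest of its group for these genes, was not dim. Quantile normalization gives every array the same distribution of values, and the part of array brightness in the result was not tested. The 925 other probes with a mean log2 signal above 12 were summarised in the same way, and their medians were 0, -0.01 and 0.08 for the siNRCP arrays in order and 0.07, -0.08 and 0 for the sicontrol arrays. Quantile normalization itself holds such medians near 0, so they do not bear on array brightness. The epithelial markers of the line were above background for 10 of the 11 genes measured, ERBB2, EPCAM and KRT7 on all 6 arrays and WT1 on 0. Of the 11, 1 passed at an adjusted p under 0.05, as did 1.65% of all probes. MSLN, the cell surface protein mesothelin, read 10.16, 10.38 and 10.49 log2 in siNRCP and 11.1, 11 and 10.9 in sicontrol (-0.65 ± 0.12, SE; limma adjusted p = 0.043; named after its value was seen). Of 9 blood, stromal and endothelial markers, PTPRC, CD3E, HBB and VWF were above background on 0 arrays and DCN on 1, whereas PECAM1 was above it on 3, ALB on 4, and CD68 and COL1A1 on all 6.

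No ribosomal protein gene passed the test between siNRCP and sicontrol: in limma, 0 of the 75 had an adjusted p (Benjamini-Hochberg, over all probes) under 0.05, a threshold that 1.65% of all probes passed. A smaller share of cells with a high level and less RNA per cell cannot be told apart in such bulk samples. At an unadjusted p under 0.05 there were 4 (5.33%), against 13.8% of all probes and 28.9% of those above background, where 71 of the 75 genes lay. They were RPL28 and RPL37 on the higher side and RPS4X and RPL9 on the lower (RPL9 was named after its value was seen). The difference was below 0 for 62 of the 75 genes (82.7%), with a median of -0.28 log2 and a range from -0.89 to 0.59. Over all probes, 49.1% were below 0 and the median was 0, values that quantile normalization itself holds near balance. The median SD within a group was 0.55 in siNRCP and 0.27 in sicontrol for these genes, against 0.14 and 0.11 over all probes, 0.26 and 0.12 over probes above background, and 0.38 and 0.15 over the other probes with a mean above 12. The standard errors ran from 0.09 to 0.45 log2, with a median of 0.27, about the size of the median difference itself. The 3 siNRCP arrays lay above the 3 sicontrol arrays for 2 genes, RPL28 and RPL37, and below them for 0. Over all probes this held for 9.15% and 8.68%, and among the 20027 probes above background for 2797 and 2679.

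**Figure D2:**
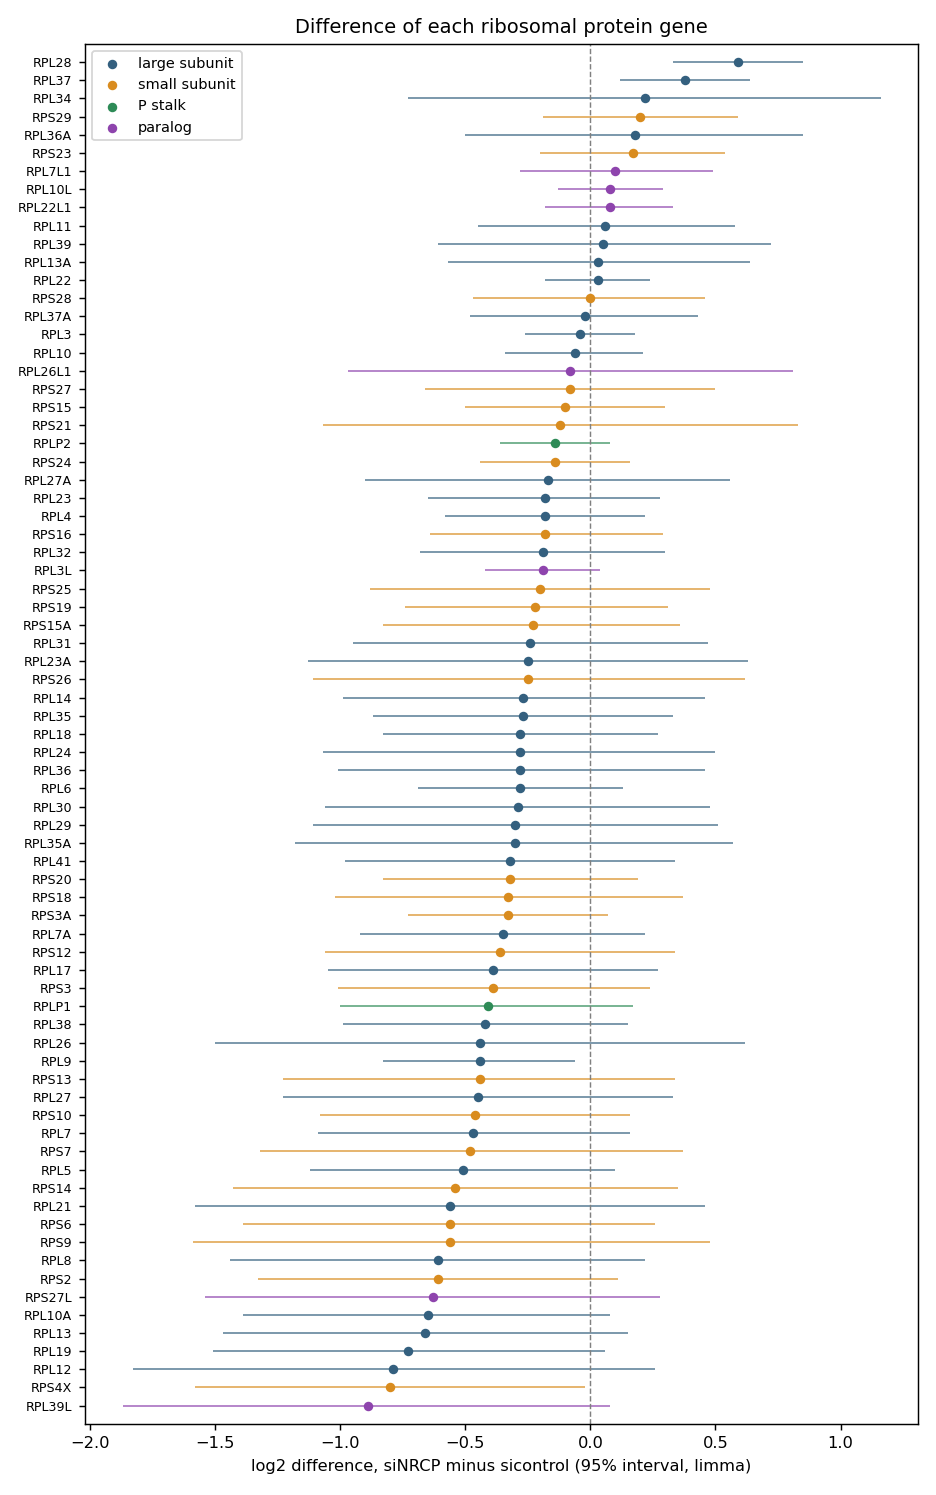
Difference in log2 signal, siNRCP minus sicontrol, with its 95% interval from limma for each of the 75 genes (n = 3 arrays per group), coloured by subunit. The intervals of RPL28 and RPL37 lie above 0 and those of RPS4X and RPL9 below it, and 0 genes passed after adjustment.

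The count rested on siNRCP array 1. Without it, 45 of the 75 genes were lower and 3 higher at an adjusted p under 0.05, in a fit where 21% of all probes passed, 10.5% as lower and 10.5% as higher, and the median difference was -0.54 log2. That fit held only siNRCP arrays 2 and 3, whose r was 0.992, against the 3 sicontrol arrays. These arrays had already been seen to be low for most of the 75 genes, so the p-values depend on the choice of array removed. In that fit RPS4X was lower by 1.23 ± 0.11 log2 (SE; limma adjusted p = 1.4e-06) and RPL12 by 1.36 ± 0.14 (adjusted p = 3.6e-06). RPL28 was higher by 0.67 ± 0.11 (adjusted p = 0.00029), RPL37 by 0.46 ± 0.11 (adjusted p = 0.0059) and RPS23 by 0.35 ± 0.11 (adjusted p = 0.035). Leaving out any of the other 5 arrays gave 0 genes. In those fits few probes of any kind passed, 0.0254%, 0.0381% and 0.0106% without sicontrol array 1, 2 or 3 and 0.396% and 0.0826% without siNRCP array 2 or 3. The medians of the 75 genes were -0.44, -0.12 and -0.28 log2 without sicontrol array 1, 2 or 3, and -0.16 and -0.11 without siNRCP array 2 or 3. The lowest adjusted p among the 75 genes in those 5 fits lay between 0.16 and 0.28.

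The 4 lowest differences were those of RPL39L, RPS4X, RPL12 and RPL19. RPS4X, an X-linked gene of the small subunit, read 12.92, 11.60 and 11.62 log2 in siNRCP and 12.70, 12.93 and 12.90 in sicontrol, values here and below being those of arrays 1 to 3 in order. siNRCP array 1 lay among the sicontrol arrays, the other two far below them. The difference was -0.80 ± 0.33 log2 (SE of 3 arrays per group; limma adjusted p = 0.35), and its second probe gave -0.83 ± 0.39. RPL12, a protein at the base of the stalk, read 12.52, 10.76 and 10.83 in siNRCP and 11.84, 12.40 and 12.22 in sicontrol, a difference of -0.79 ± 0.45 (adjusted p = 0.52). RPL19, which forms a bridge between the subunits, read 13.55, 12.27 and 12.25 in siNRCP and 13.20, 13.57 and 13.47 in sicontrol, a difference of -0.73 ± 0.33 (adjusted p = 0.41). In all 3 genes the 2 low siNRCP arrays stood more than 1 log2 unit below siNRCP array 1.

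The highest differences were those of RPL28, RPL37, RPL34 and RPS29. RPL28, a large subunit protein without a bacterial counterpart, read 8.13, 8.40 and 8.34 log2 in siNRCP and 7.65, 7.83 and 7.61 in sicontrol. The groups did not overlap, and the difference was 0.59 ± 0.11 log2 (SE of 3 arrays per group; limma adjusted p = 0.053), with a 95% interval from 0.33 to 0.85. Under cyclic loess normalization, where 2.06% of all probes passed, RPL28 was the 1 gene of the 75 that did, at 0.56 (limma adjusted p = 0.044), and with array weights, where 17.3% of all probes passed, 30 did. RPL37, a zinc-binding protein of the large subunit, read 7.96, 8.19 and 8.26 in siNRCP and 7.65, 7.86 and 7.77 in sicontrol, 0.38 ± 0.11 (adjusted p = 0.18), while its other probe was above background on 0 arrays. Both genes were higher on every siNRCP array, including the pair of arrays on which most ribosomal protein genes were low. Their probes were dim for this set. The median gene lay at 12.92, 11.92 and 11.94 log2 in siNRCP and at 12.47, 12.93 and 12.72 in sicontrol. RPL28 had only 1 probe, and which transcripts these dim probes read was not tested. RPL34 was high on 1 array, with 9.89, 8.19 and 8.40 in siNRCP against 8.49, 8.72 and 8.62 in sicontrol (0.22 ± 0.40, adjusted p = 0.89). Without siNRCP array 1 its difference was -0.32, and its other probe gave -0.62 ± 0.42 with all arrays.

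**Figure D3:**
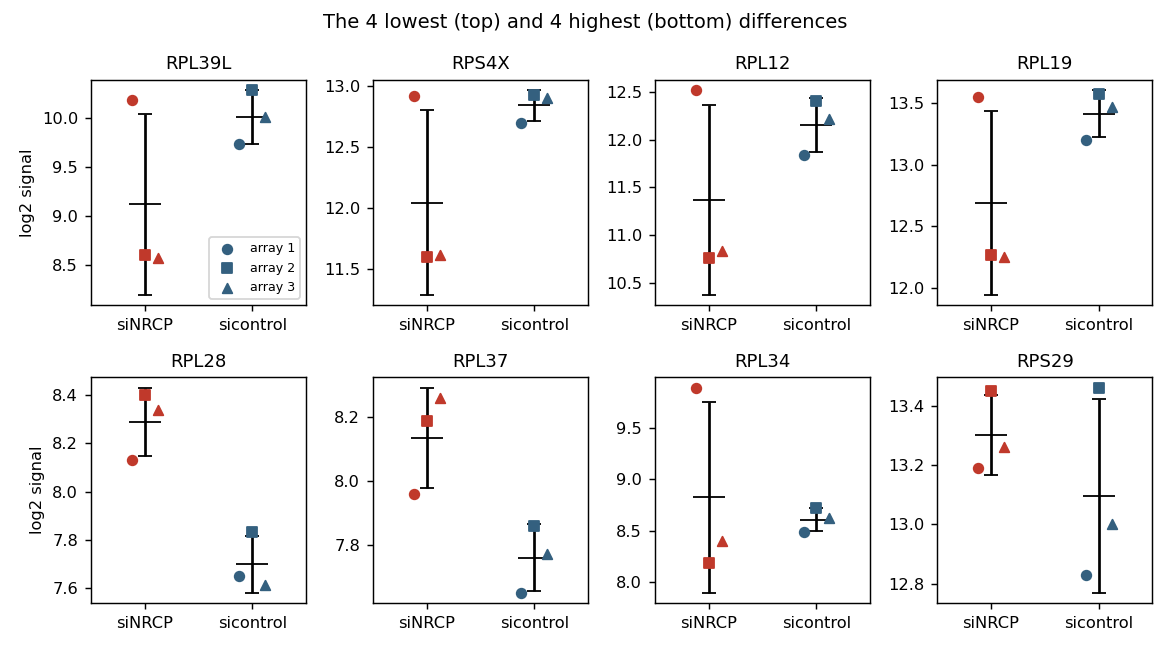
Log2 signal on each array for the 4 genes with the lowest difference (upper row) and the 4 with the highest (lower row), siNRCP left of sicontrol; bars are the mean and SD of 3 arrays. In RPL39L, RPS4X, RPL12 and RPL19, siNRCP array 1 lies near the sicontrol arrays, and in RPL28 and RPL37 the groups do not overlap.

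In the small subunit 23 of 25 genes were below 0, with a median of -0.32 log2, and 0 passed. RPS6, the protein that S6 kinase phosphorylates, read 13.24, 11.94 and 11.76 in siNRCP and 12.78, 13.01 and 12.85 in sicontrol (-0.56 ± 0.35 log2, SE; limma adjusted p = 0.57). RPS3, which lines the channel where mRNA enters, differed by -0.39 ± 0.27 (adjusted p = 0.61), with 12.95, 11.94 and 11.95 in siNRCP and 12.48, 12.74 and 12.80 in sicontrol. RPS19, whose loss of one copy causes Diamond-Blackfan anaemia, had 13.88, 13.27 and 13.27 in siNRCP and 13.38, 14.07 and 13.60 in sicontrol. Its difference of -0.22 ± 0.22 (adjusted p = 0.77) was within the spread of either group. RPS21 had the widest spread of the sicontrol arrays, at 8.95, 10.28 and 9.55, against 10.21, 9.27 and 8.94 in siNRCP (-0.12 ± 0.41, adjusted p = 0.94). The 2 genes above 0 were RPS29, a zinc-binding protein, and RPS23, which lies at the decoding centre. RPS29 read 13.19, 13.45 and 13.26 in siNRCP and 12.83, 13.46 and 13 in sicontrol (0.20 ± 0.17, adjusted p = 0.69). RPS23, named after its values were seen, read 10.92, 11.48 and 11.43 in siNRCP and 11.22, 11.03 and 11.07 in sicontrol (0.17 ± 0.16, adjusted p = 0.73). On it the order of the siNRCP arrays was turned round, with array 1 the lowest.

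In the large subunit 33 of 41 genes were below 0, with a median of -0.28 log2, and 0 passed. RPL5 and RPL11 carry 5S rRNA into the ribosome and bind MDM2 when assembly fails. RPL5 read 12.93, 11.86 and 12 in siNRCP and 12.71, 12.79 and 12.84 in sicontrol (-0.51 ± 0.26 log2, SE; limma adjusted p = 0.46). RPL11 read 14.09, 13.30 and 13.32 in siNRCP and 13.33, 13.69 and 13.50 in sicontrol (0.06 ± 0.22, adjusted p = 0.94). The difference between RPL5 and RPL11 was not tested. RPL3, which reaches the peptidyl transferase centre, and RPL22, an RNA-binding protein on the outer surface, gave close values on all 6 arrays with the probe used. RPL3 read 14.06, 13.88 and 14.05 in siNRCP and 14.02, 14.11 and 13.96 in sicontrol, and its 95% interval ran from -0.26 to 0.18. The other RPL3 probe read 13.09, 12.58 and 12.68 in siNRCP and 13.02, 12.99 and 13.14 in sicontrol (-0.27 ± 0.14), with siNRCP arrays 2 and 3 below every sicontrol array. RPL22 read 12.09, 12 and 12.20 in siNRCP and 12.10, 12.06 and 12.05 in sicontrol, with an interval from -0.18 to 0.24. RPL13A, often used as a reference gene, read 12.78, 11.86 and 11.74 in siNRCP and 11.95, 12.21 and 12.12 in sicontrol (0.03 ± 0.26, adjusted p = 0.98), with 1 siNRCP array above and 2 below every sicontrol array. Without siNRCP array 1 the difference was -0.29. RPL39, a small protein of the exit tunnel, gave a difference of 0.05 ± 0.28, RPL26, which sits beside the tunnel exit, -0.44 ± 0.45, and RPL7 -0.47 ± 0.27. Both probes of RPL10, which joins the large subunit late in assembly, were above background on 0 arrays, so its value in the counts and plots (-0.06) compares readings at background.

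The P stalk recruits elongation factors to the ribosome. RPLP1 read 13.55, 12.82 and 12.80 log2 in siNRCP and 13.16, 13.87 and 13.37 in sicontrol, a difference of -0.41 ± 0.25 (SE, limma adjusted p = 0.55). Its other probes gave 0.06 ± 0.22 and -0.45 ± 0.34. RPLP2 read 14.35, 14.14 and 14.14 in siNRCP and 14.30, 14.38 and 14.38 in sicontrol, -0.14 ± 0.09 (adjusted p = 0.60). Its signal lay close to the highest value of the arrays, 14.71, and the part of that ceiling in its small difference was not tested. Over the 71 genes above background, the difference and the mean signal had a Spearman rho of 0.07 (a description across genes that share the same 6 arrays).

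Of the 7 paralogs, RPL3L and RPL10L were above background on 0 arrays and RPL22L1 on 1, so only RPL39L, RPS27L, RPL26L1 and RPL7L1 gave a signal. RPL39L, best known from male germ cells, read 10.19, 8.60 and 8.57 log2 in siNRCP and 9.74, 10.29 and 10.01 in sicontrol. Its difference was -0.89 ± 0.42 (SE; limma adjusted p = 0.41), while its parent RPL39 gave 0.05 ± 0.28. RPS27L, a known p53 target, read 11.25, 9.90 and 9.76 in siNRCP and 10.56, 11.30 and 10.95 in sicontrol (-0.63 ± 0.39, adjusted p = 0.56). Its parent RPS27 read 12.82, 12.59 and 12.46 in siNRCP and 12.27, 13.29 and 12.56 in sicontrol (-0.08 ± 0.25, adjusted p = 0.94). The differences between paralog and parent were not tested. RPL26L1 read 9.76, 8.18 and 8.38 in siNRCP and 8.69, 9.06 and 8.82 in sicontrol (-0.08 ± 0.38). RPL7L1 read 13.59, 14.15 and 13.97 in siNRCP and 13.86, 13.59 and 13.95 in sicontrol (0.10 ± 0.16), but its other probe gave -0.37 ± 0.30.

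For 37 genes there were several probes, up to 4. Their differences had opposite signs for 8 genes when only probes above background are taken, and 0 of the 124 probes passed. For RPS29, 3 probes gave 0.20, 0.24 and 0.33 log2, and the remaining one gave -0.03. The probes of RPS27 gave -0.08, -0.24 and -0.05, and those of RPL11 0.06 and -0.02. Probes of a gene also differed in size, in either direction. RPS24 gave -0.14 with the probe used and -0.69 with the other, and RPL13 gave -0.66 and -0.28. The median over all 124 probes was -0.28, as over the 75 genes.

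Other genes of translation did not all share the offset. The 6 elongation factor genes measured had array medians of 0.15, -0.48 and -0.31 log2 in siNRCP and of 0.03, 0 and 0.02 in sicontrol. Of these genes 0 passed, against 1.65% of all probes. At an unadjusted p under 0.05 there were 0, against 13.8% of all probes and 28.9% of those above background. Among the 6 genes EEF1B2, an exchange factor subunit, was lowest (-0.57 ± 0.27, SE; limma adjusted p = 0.43) and EEF2, the translocase, highest (0.49 ± 0.24, adjusted p = 0.43). FAU, which encodes a small subunit protein fused to a ubiquitin-like one, and RPL36AL, a copy of RPL36A outside the name rule, gave -0.35 ± 0.34 and -0.42 ± 0.40. Their median was 0.48, -0.69 and -0.94 in siNRCP and -0.42, 0.37 and 0.05 in sicontrol. Of 10 other genes taken here as TOP mRNAs, RPS6KB1 among them, NPM1 was above background on 0 arrays. The 10 genes had medians of -0.02, -0.13 and 0.03 in siNRCP and -0.03, 0.03 and -0.03 in sicontrol. None of them passed (0). At an unadjusted p under 0.05 there were 3 (30%), near the 28.9% of probes above background. NAP1L1, a histone chaperone, was lowest at -0.40 ± 0.11 (adjusted p = 0.16). EIF4B, a helper of the initiation helicase, was highest at 0.95 ± 0.23 (adjusted p = 0.11). Another NAP1L1 probe did pass, at -0.69 ± 0.11 (adjusted p = 0.031), and a further one gave 0.02 ± 0.18.

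In 3 further lists of translation and ribosome genes 1 gene each passed. Over all probes 1.65% passed, and all 781 of these were among the 20027 above background, so the share there was higher. Of the list genes, 27, 17 and 30 were above background, and the counts are not read as a result about the lists. Of 27 initiation factor genes, 1 passed: EIF1AX, which helps the small subunit scan for the start codon, fell by 1.90 ± 0.33 log2 (SE of 3 arrays per group; limma adjusted p = 0.042). It read 10.57, 9.18 and 9.32 in siNRCP and 11.63, 11.60 and 11.54 in sicontrol, without overlap, and a second probe above background gave -0.59 ± 0.23 (adjusted p = 0.31). The highest of that list was EIF4G1, the scaffold of the cap-binding complex, at 0.88 ± 0.34 (adjusted p = 0.30). Of 18 genes that control TOP translation or ribosome gene expression, 1 passed: EIF4EBP2, a repressor of the cap-binding protein, fell by 0.93 ± 0.09 (adjusted p = 0.0076), with 7.97, 8.10 and 8.13 in siNRCP and 9, 8.96 and 9.04 in sicontrol. The highest there was TSC1, a subunit of the complex that restrains mTOR, at 0.68 ± 0.27 (adjusted p = 0.32). Of 32 ribosome assembly genes, 1 passed: NOLC1, a nucleolar chaperone, rose by 1.5 ± 0.11 (2.83-fold; adjusted p = 0.0042), with 8.26, 8.40 and 8.39 in siNRCP and 6.89, 6.67 and 6.98 in sicontrol. BRIX1, a large subunit assembly factor, was lowest at -0.75 ± 0.28 (adjusted p = 0.30). EIF4EBP2 and NOLC1 lay on 1 side on all siNRCP arrays, array 1 included. With 1 array left out, EIF1AX passed only without siNRCP array 1, with differences from -1.65 to -1.93 log2 in the other 5 fits. EIF4EBP2 did not pass without sicontrol array 1, 2 or 3 (-0.93, -0.95 and -0.91) or siNRCP array 3 (-0.97), and NOLC1 did not pass without sicontrol array 1 (1.52) or 3 (1.57). The medians of the 3 lists were -0.05, -0.07 and 0.05.

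**Figure D4:**
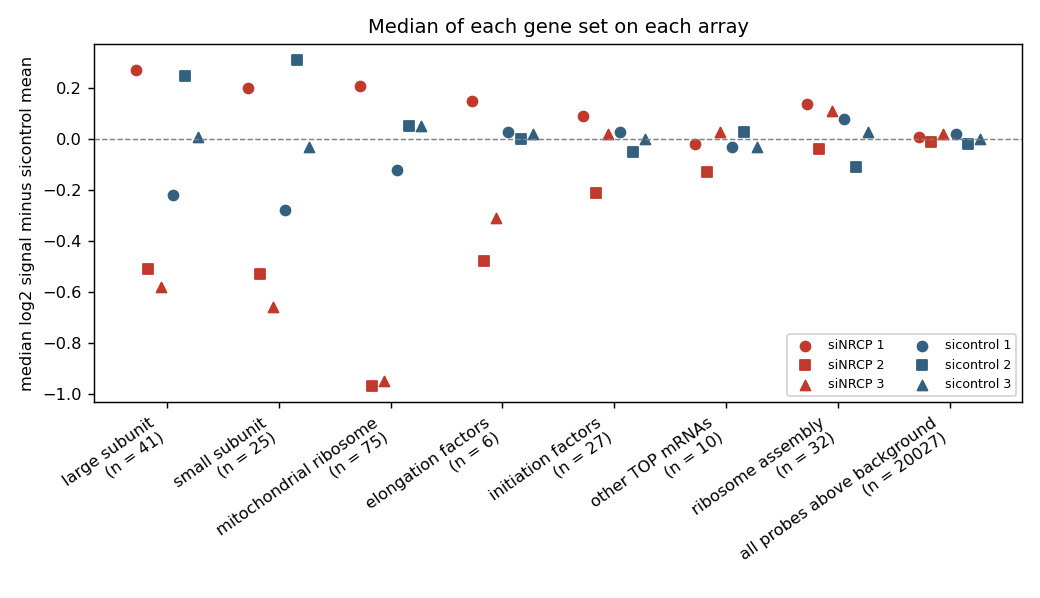
Median log2 signal minus the sicontrol mean on each array, for the ribosomal protein genes of each subunit and for other gene sets (number of genes below each name). siNRCP arrays 2 and 3 are low for both subunits and for the mitochondrial ribosome. All arrays lie near 0 over all probes above background, where quantile normalization itself holds them.

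The 75 mitochondrial ribosomal protein genes, which build a separate ribosome in the mitochondrion, were likewise low on siNRCP arrays 2 and 3. Their medians were 0.21, -0.97 and -0.95 log2 in siNRCP and -0.12, 0.05 and 0.05 in sicontrol. Array 1 was the lowest of the 3 sicontrol arrays for 56 of the 75, against 34.4% of probes above background. The median difference of the 75 mitochondrial genes was -0.56 log2, and 0 of them passed limma over all probes (18, or 24%, at an unadjusted p under 0.05, against 13.8% of all probes and 28.9% of those above background). The sicontrol SD was 0.14 at the median for the mitochondrial set and 0.27 for the cytosolic set. The difference between the 2 sets was not tested.

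Ribosomal protein genes are short, and array offsets varied with the genomic length of a gene. The 71 genes above background had a median span of 5127 bp, against 28332 bp for 11479 other named genes above background. Across those other genes, the offset of an array from the sicontrol mean had a Spearman rho with span of -0.22, 0.30 and 0.28 in siNRCP and of 0.25, -0.24 and -0.04 in sicontrol. The arrays with a low ribosomal protein signal, siNRCP 2 and 3 and sicontrol 1, were those on which longer genes read higher. Within the 71 genes the same correlation was -0.07, 0.12 and 0.18 in siNRCP and 0.19, -0.21 and 0.10 in sicontrol. Genes share the arrays and are not independent, so no p is given, and the part of gene length in the result was not tested.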

How the data were processed

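The deposited probe table holds intensity values on a linear scale, without detection p-values; BeadStudio is the software that the submitters' processing notes name. A second deposited table, the series matrix, holds log2 values and differed by at most 0.0647 from log2 and quantile normalization of the intensities. An aligner and genome build do not apply. Intensities were corrected by normexp (offset 50), log2 transformed and then quantile normalized. All 47231 probes were fitted in limma 3.58.1 (R 4.3.3), siNRCP minus sicontrol, with no covariate and Benjamini-Hochberg adjustment. Probe names came from the platform annotation, of which 30113 probes had 1 symbol, 8 several and 17110 none. Entrez identifiers matched 30074 probes, and 0 symbols needed updating. Background was the 95th percentile of 437 olfactory receptor probes on each array, and a probe counted as above it on at least 3 arrays. Ranking by mean raw intensity would choose another probe for 2 genes, RPL14 and RPS3A.

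The members and lists were chosen with earlier results of these data known, and the descriptions of array order, gene span, mRNA starts and high-signal probes were added after the values were seen. Named genes were those that passed, the 4 largest differences each way, the stalk genes, paralogs with their parents, RPL5, RPL11, RPS6, RPS3, RPS19, RPL13A and RPS4X, the genes with the highest and lowest signal and the widest spread in each group, and the extremes and those that passed of every other list except the markers and the mitochondrial set. The fit was run on simulated data with independent noise for each probe and array. These held no offset shared by the probes of an array, so the effect of such offsets was not tested. Alternatives were other background corrections, scalings, values, variance models, array weights, a replicate block, a filter, the mean of a gene's probes, no paralogs, and leaving out each array. The number of arrays limits the precision.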

Additional observations from a re-analysis of the deposited data

How the results depend on the processing

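The ribosomal protein median stayed below 0 under each alternative run. It was -0.58 under median scaling, which moved the median of all probes above background to -0.13, and between -0.54 and -0.11 when 1 array was left out; under the other alternatives except array weights (-0.52) it lay between -0.28 and -0.26. The number of ribosomal protein genes passing was 0 except for 1 under cyclic loess (RPL28), 30 with array weights (28 lower, 2 higher; 17.3% of all probes passed) and 48 without siNRCP array 1. Leaving out 1 array gave 0 to 48 genes. The number of all probes passing, 781 as reported (348 higher, 433 lower), was 254 under median scaling (43 higher, 211 lower), 469 with trend and robust options, 8167 with array weights and 0 with the replicate number as a block (4887 at an unadjusted p under 0.05), and between 5 and 9920 when 1 array was left out. Same-numbered arrays deviated in opposite directions (r = -0.64, -0.43 and -0.20). Deviations within such small groups constrain each other, so these values do not show whether same-numbered samples were handled together.

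Under median scaling RPS29 read -0.14, RPL7L1 -0.12, RPL22 -0.27, RPL39 -0.27, RPL11 -0.32 and RPL13A -0.25. Under cyclic loess RPLP2 read 0.05, RPL3 0.03 and RPL11 -0.01. With array weights RPL34 read -0.13, RPL10 0.02, RPL39 -0.05, RPL11 -0.12 and RPL13A -0.24. With the mean of a gene's probes RPL34 read -0.20 and RPL7L1 -0.13. When 1 array was left out, the ranges crossed 0 for RPL39 (-0.19 to 0.33), RPL11 (-0.19 to 0.20), RPL13A (-0.29 to 0.23), RPL26L1 (-0.58 to 0.22), RPS27 (-0.30 to 0.21), RPS21 (-0.49 to 0.22), RPL34 (-0.32 to 0.53), RPL10 (at background, -0.14 to 0.02), RPL7L1 (-0.02 to 0.26), RPL22L1 (also at background, -0.01 to 0.16), RPL3 (-0.07 to 0.02) and RPL22 (-0.02 to 0.08). EIF1AX did not pass without background correction (-1.83), under median scaling (-2.13), with the series matrix values (-1.82) or with the block (-1.90), and EIF4EBP2 and NOLC1 did not pass with the block. The cause of these changes was not tested.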
